A study of Homo sapiens with 6 samples.

Results

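The long intergenic noncoding RNAs that carry a numbered LINC name were examined in MM.1S, a human multiple myeloma cell line, after knockdown of PRKCN, a protein kinase D family member that the count table lists as PRKD3. Members were the genes whose symbol is LINC followed only by digits and whose count averaged 50 or more over the 6 libraries. This gave 96 of the 725 LINC genes listed, among 21850 genes in all. The rule used the mean over both groups and not the difference between them, so the 96 were chosen by their mean count alone. RNA was taken at day 3 after lentiviral infection from cells given a scrambled hairpin (shNT, genotype WT, 3 libraries) and from cells given an shRNA against PRKCN (shPRKCN, labelled PRKCN knockdown, 3 libraries). Both groups carried a hairpin vector, and the comparison rests on 1 cell line and 1 targeting construct. The labels do not say whether the 3 libraries of a group came from separate cultures, so the p-values measure the spread between these libraries, which may be technical.

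A long noncoding RNA is transcribed and usually spliced like an mRNA but is not known to encode a conventional protein. LINC names are given in order of registration to genes that lie between coding genes and have no better known function, so the name groups these genes by what is not known about them rather than by a shared pathway. Such RNAs are often restricted to few cell types, and in blood lineages several are used as markers of a stage or lineage. Some act on the transcription of a gene nearby, others on chromatin, splicing or mRNA stability in trans, and for many no role is known.

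RefSeq (GRCh38.p14, the build in the submitters' processing notes) held 89 of the 96 under the same symbol and 6 more under another name, and LINC01850 was not matched. Of the 6 renamed genes, LINC00888 is now the snoRNA host SNHG33 and LINC00461 the microRNA host MIR9-2HG, while LINC00672 (LASP1NB) and LINC02804 (GPR89B) are now classed as protein coding. The 95 placed genes lay on 22 chromosomes, with 17 on chromosome 1. The transcript lengths implied by the deposited counts and FPKM values ran from 471 to 18957 bases over the 96 members. RefSeq promoter windows, which run from 250 bases before to 50 bases after the transcription start, were matched for 63 members. Those of 4 members are printed, the 2 with the largest fall and rise and 2 that rose and lie in the same region of chromosome 12. They run 5′ to 3′ on the gene's own strand, with capitals marking the letters TATAAA on either strand, at any position in the window. LINC02551, the member with the largest fall, has its window at chr11:130862061-130862360, minus strand. LINC01806, which had the largest rise, has its window at chr2:161244489-161244788, plus strand. LINC01619, at chr12:92142782-92143081 on the minus strand, and LINC02397, at chr12:92466429-92466728 on the plus strand, both rose, while LINC02391, which lies between them, had a log2 fold change of 0.05.
LINC02551: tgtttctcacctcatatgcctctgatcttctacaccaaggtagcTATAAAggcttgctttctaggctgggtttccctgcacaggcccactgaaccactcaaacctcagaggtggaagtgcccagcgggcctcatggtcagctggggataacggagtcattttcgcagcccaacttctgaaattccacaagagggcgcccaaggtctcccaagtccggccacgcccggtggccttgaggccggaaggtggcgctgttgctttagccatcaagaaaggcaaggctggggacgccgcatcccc
LINC01806: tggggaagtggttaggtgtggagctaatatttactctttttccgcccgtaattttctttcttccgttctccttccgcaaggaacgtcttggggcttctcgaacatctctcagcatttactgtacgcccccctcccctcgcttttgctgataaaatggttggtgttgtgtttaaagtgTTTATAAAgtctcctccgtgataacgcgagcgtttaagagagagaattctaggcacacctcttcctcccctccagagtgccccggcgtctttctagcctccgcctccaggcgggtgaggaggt
LINC01619: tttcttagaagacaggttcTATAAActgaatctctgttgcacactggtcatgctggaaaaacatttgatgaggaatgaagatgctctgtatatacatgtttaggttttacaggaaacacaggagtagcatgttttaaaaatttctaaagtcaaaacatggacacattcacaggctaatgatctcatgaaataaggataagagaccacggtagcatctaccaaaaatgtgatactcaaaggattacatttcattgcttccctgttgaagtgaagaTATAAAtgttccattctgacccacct
LINC02397: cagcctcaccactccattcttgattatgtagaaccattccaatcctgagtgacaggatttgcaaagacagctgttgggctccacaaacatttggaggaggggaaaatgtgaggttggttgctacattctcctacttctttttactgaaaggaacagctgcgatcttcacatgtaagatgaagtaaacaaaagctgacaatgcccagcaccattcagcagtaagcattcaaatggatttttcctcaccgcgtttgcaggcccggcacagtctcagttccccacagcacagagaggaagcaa

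The libraries held 35625564 to 37730003 counts each, and the first principal component of all tested genes, which carried 65.14% of the variance, separated the 2 groups. PRKD3, the target of the hairpin, was counted 44913, 47712 and 45531 times in the shNT libraries and 19979, 18253 and 19998 times in the shPRKCN libraries. Its level fell from 1262 ± 41.7 to 517 ± 23.4 CPM (counts scaled to a common library size with TMM factors, SD, n = 3), which left 41.0% of the shNT level (log2 fold change −1.29, SE 0.034). All 9 plasma cell markers tested were expressed. By the limits given below 4 of them were called lower, IRF4 (−1.85), XBP1 (−1.28), TNFRSF17 (−1.13) and SLAMF7 (−0.97, all log2 fold changes). The others were not called, with PRDM1 at −0.54, MZB1 at −0.23, SDC1 at 0.18, CD38 at −0.01 and JCHAIN at 0.01. The summed level of all 9 was 9207 to 9327 CPM in shNT and 7920 to 8044 CPM in shPRKCN cells. Myeloid and stromal markers had at most 9 counts per library. Of the T cell genes CD3D had at most 1 count and CD2 7 to 29, whereas CD3E went from 379 to 419 counts in shNT to 1021 to 1150 in shPRKCN cells. HBB, an erythroid gene, went from 80 to 145 counts to 35 to 41. Whether these shifts have a part in the LINC values was not tested.

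The LINC members that were called went in both directions after PRKCN knockdown, and a shift of the group as a whole was not tested. Of the 96 members, 7 rose (7.29%) and 8 fell (8.33%), where a gene was called if edgeR's quasi-likelihood test gave a p of under 0.05 after Benjamini-Hochberg adjustment over the 13971 genes tested and its level differed by more than 0.58 on the log2 scale. The same call was made for 6.15% of all tested genes upward and for 10.6% downward. All 96 members passed the filter on low counts. Their median log2 fold change was 0.06, with 57 above 0 and 39 below, beside a median of 0.0012 over all genes. The middle range of the members, from the lower to the upper quartile, was −0.13 to 0.30, and that of all genes −0.27 to 0.22. The extremes were −2.0 and 0.99.

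Without the limit on size, fewer members passed than genes in general. By adjusted p alone 19 members were higher (19.8%) and 14 lower (14.6%), against 26.5% and 27.8% of all tested genes. The 3 CPM values of one group lay entirely above or below those of the other for 45 members (46.9%), against 58.8% of all genes. In 27 of these the shPRKCN libraries were above and in 18 below. Members were counted less deeply than most genes, with a median mean count of 207 beside 767 over all genes, so the shares were also set out by level. Among genes averaging 50 to 100 counts, 24.1% of the 29 members and 38.4% of all genes passed by adjusted p alone. From 100 to 200 counts the shares were 38.9% of 18 members and 47.1% of genes. From 200 to 500 counts they were 45.2% of 31 members and 53.2% of genes. At 500 counts and more they were 27.8% of 18 members and 65.5% of genes, but the highest range holds 8177 genes, many of them counted far more deeply than any LINC gene.

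Abundance was concentrated in a few members. On the FPKM scale, which divides by transcript length and so allows genes to be compared, the mean over the 6 libraries ran from 0.171 to 152 with a median of 1.89, and 9 members reached 10 FPKM while 25 were under 1. LINC01480, at chr19:41535498-41536904, stood far above the rest at 189 ± 6.68 FPKM in shNT and 116 ± 1.31 in shPRKCN cells (SD, n = 3). This rests on the length of 478 bases that the deposited counts and FPKM values imply. By CPM, which is not divided by length, LINC01000 was higher, at 132 ± 1.04 in shNT cells against 90.8 ± 3.07 for LINC01480. The next 3 by FPKM, LINC02528, LINC00996 and LINC00888, averaged 29.9, 27.6 and 20.7 FPKM. LINC02528, named SIMALR in RefSeq, lies 59763 bases from TNFAIP3, an inhibitor of NF-κB signalling, and had 31.1 ± 0.807 FPKM in shNT and 28.8 ± 2.50 in shPRKCN cells. LINC00996, beside the GIMAP immune GTPase genes on chromosome 7, had 26.6 ± 0.825 and 28.5 ± 0.818 FPKM. Those 2 members do not differ in level beyond their spread in shPRKCN cells, whereas LINC01480 is above both in every library.

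Together the members took 0.0930 to 0.0969% of the counts of a library. Their summed level was 959 ± 4.10 CPM in shNT and 949 ± 11.7 CPM in shPRKCN cells, a ratio of 0.989. By raw counts the 3 largest members, LINC01000, LINC01480 and LINC00996, held 28.3% of the sum. Without these 3 the sum was 681 ± 2.04 and 687 ± 11.7 CPM. The group sums differed by less than the SD of the shPRKCN libraries, even though LINC01480 fell.

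**Figure D1:**
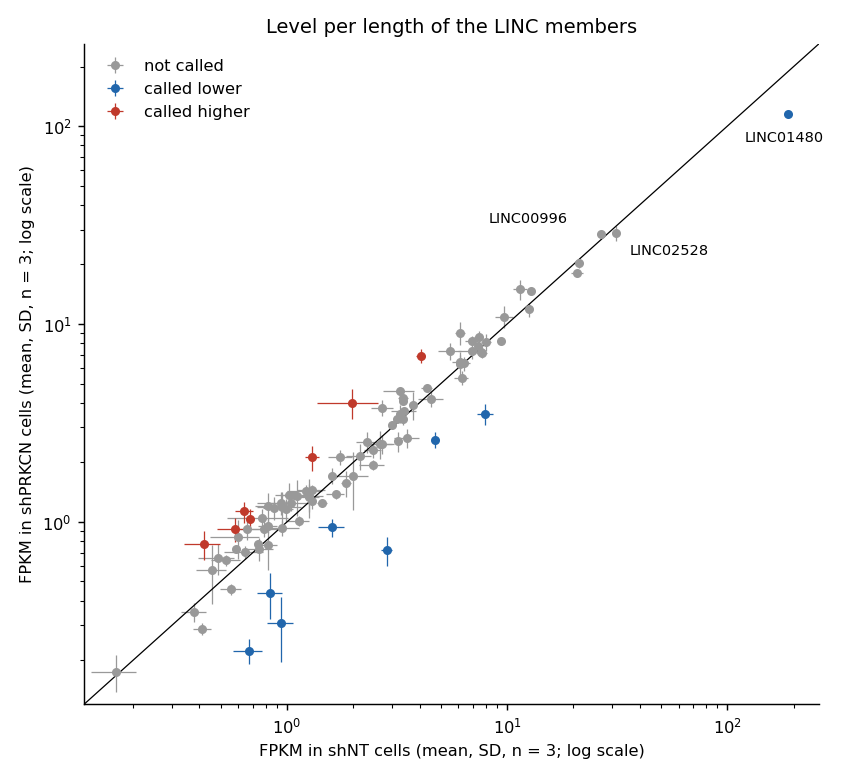
Level per length of the 96 LINC members in shNT (horizontal) and shPRKCN cells (vertical), as mean FPKM with SD over 3 libraries on log axes, with the diagonal marking equal levels. LINC01480 sits alone at the top right, at 189 FPKM in shNT and 116 in shPRKCN cells, under the diagonal.

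Of the 8 members that fell, LINC02551 did so by the largest factor. Its counts were 152, 143 and 160 in shNT and 40, 32 and 45 in shPRKCN cells, so the groups were far apart. This is 4.16 ± 0.231 against 1.04 ± 0.164 CPM, or 25% of the shNT level (log2 fold change −2.0, SE 0.211, edgeR adjusted p = 7.8e-13). The gene spans chr11:130844193-130862110 on the minus strand, 4140 bases from SNX19, a sorting nexin of endosomal membranes, which had a log2 fold change of 0.24.

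LINC02937, at chr9:91077101-91163280 on the minus strand, was counted 503, 501 and 398 times in shNT and 181, 139 and 153 times in shPRKCN cells. It fell from 12.8 ± 1.93 to 4.20 ± 0.575 CPM (log2 fold change −1.61, SE 0.122, edgeR adjusted p = 8.4e-19). LINC01735, at chr1:208606115-208614122, had 71, 67 and 89 counts against 32, 15 and 28, the lowest mean count of all members. The groups did not overlap, and the fall was −1.63 on the log2 scale (SE 0.294, edgeR adjusted p = 2.5e-06). LINC01055, at chr13:45681199-45701184, lies 1136 bases from CBY2 and had 182, 212 and 227 counts against 103, 91 and 83. It fell from 5.66 ± 0.464 to 2.46 ± 0.287 CPM (log2 fold change −1.20, SE 0.162, edgeR adjusted p = 2.2e-09).

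LINC01480, the most abundant member by FPKM, fell by a smaller factor that was measured closely. The counts were 3083, 3426 and 3437 in shNT and 2058, 2042 and 2083 in shPRKCN cells. The level went from 90.8 ± 3.07 to 55.0 ± 0.137 CPM, which is 60.6% (log2 fold change −0.72, SE 0.045, edgeR adjusted p = 9.6e-23). LINC00997, at chr7:32758286-32762924, was also well counted, with 804, 789 and 801 against 492, 427 and 427, and fell from 21.9 ± 0.775 to 12 ± 1.05 CPM (log2 fold change −0.87, SE 0.081). LINC01366 and LINC00173 were the other members called lower. LINC01366 had 73, 59 and 75 counts against 44, 26 and 40 (log2 fold change −0.95, SE 0.275, edgeR adjusted p = 0.0025). LINC00173 had 98, 133 and 122 counts against 77, 69 and 64 (log2 fold change −0.79, SE 0.201, edgeR adjusted p = 6.5e-04). All 8 kept their calls under each other scaling, filter, tool and left-out library for the counts, and 6 of the 8 passed when the test itself was set against the size limit.

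The 7 members that rose did so by less than the largest falls. LINC01806, at chr2:161244739-161249050, had 225, 161 and 131 counts in shNT and 418, 309 and 335 in shPRKCN cells. The control libraries varied widely, yet the lowest knockdown library was above the highest control library. The level went from 4.75 ± 1.47 to 9.44 ± 1.54 CPM (log2 fold change 0.99, SE 0.138, edgeR adjusted p = 4.7e-09). TANK, the closest coding gene at 8509 bases and an adaptor of NF-κB and interferon signalling, had a log2 fold change of −0.09.

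LINC02397, which is used as a B cell marker in blood atlases, was counted 341, 337 and 330 times in shNT and 616, 591 and 534 times in shPRKCN cells. It rose from 9.21 ± 0.423 to 15.5 ± 1.27 CPM (log2 fold change 0.75, SE 0.094, edgeR adjusted p = 2.4e-10). LINC01619 had 45, 32 and 43 counts against 79, 84 and 61 (log2 fold change 0.86, SE 0.263, edgeR adjusted p = 0.0043). Its RefSeq span overlaps BTG1, an antiproliferative gene of B cells, and 9.41% of its 50-base stretches also occur in BTG1 transcripts. LINC02812 had 95, 88 and 83 counts against 137, 161 and 178, with no overlap (log2 fold change 0.80, SE 0.175, edgeR adjusted p = 8.3e-05).

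The other 3 members that rose were closer to the limit on size, and each lost its call when 1 library was left out. LINC00205 had 166, 166 and 126 counts against 203, 267 and 264 (log2 fold change 0.64, SE 0.143, edgeR adjusted p = 1.1e-04), and 0.50 without shNT replicate 3 or 0.57 without shPRKCN replicate 2. LINC01260 had 50, 60 and 56 counts against 78, 105 and 91 (log2 fold change 0.68, SE 0.231), and 0.57 without shPRKCN replicate 2 (edgeR adjusted p = 0.064). LINC01252 had 89, 91 and 94 counts against 132, 133 and 162 (log2 fold change 0.60, SE 0.178), and 0.51 without shPRKCN replicate 3. None of the 3 had overlapping groups. Leaving out shNT replicate 2 gave 11 members higher instead of 7, the added ones being LINC00511, LINC00662, LINC01215 and LINC01512.

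**Figure D2:**
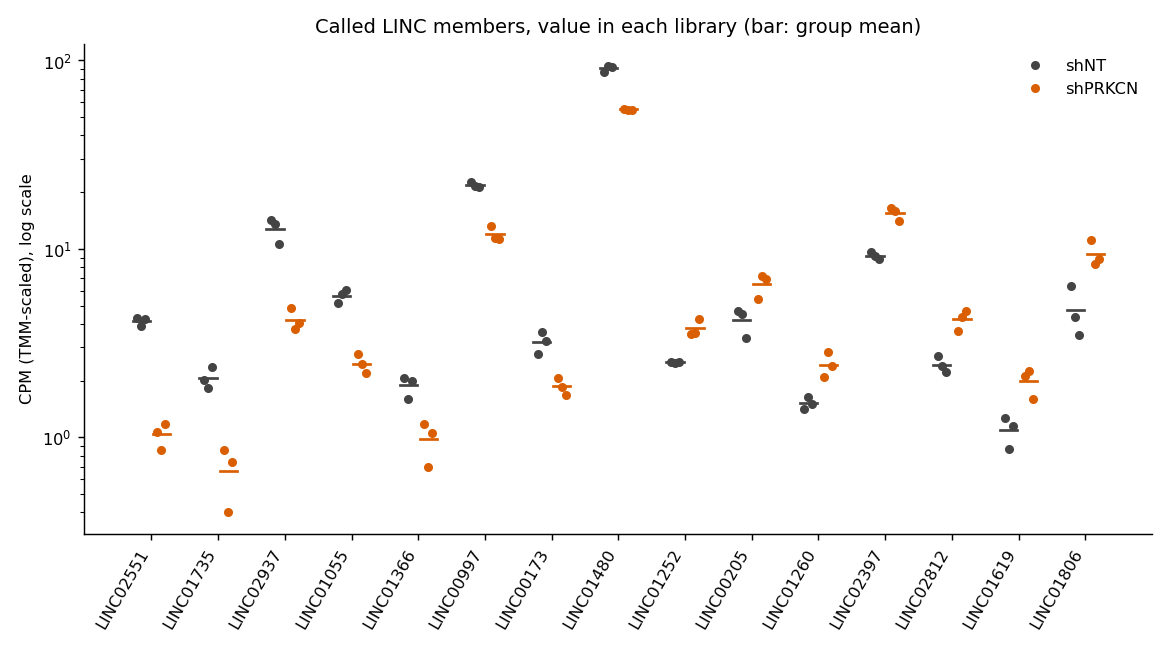
CPM in each library, on a log axis, for the 15 LINC members called lower or higher, with 3 shNT and 3 shPRKCN points per gene and a bar at each group mean. The groups are separate for every gene shown, with LINC01480 highest at 90.8 CPM in shNT and 55.0 CPM in shPRKCN cells.

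A further 18 members passed by adjusted p but stayed within the limit on size, 12 of them higher. LINC01000, which has the highest counts of any member, had 4686, 4809 and 4960 counts in shNT and 5794, 5454 and 5496 in shPRKCN cells. The groups were apart, but the log2 fold change was 0.17 (SE 0.038, edgeR adjusted p = 8.9e-05), from 132 ± 1.04 to 149 ± 5.55 CPM. LINC01215 (0.48), LINC00662 (0.52) and LINC01399 (0.54) came closest to the limit from below. The others on this side were LINC00667 (0.19), LINC00426 (0.22), LINC00880 (0.26), LINC01278 (0.31), LINC00944 (0.39), LINC01684 (0.42) and LINC00528 (0.45), and the groups of all 12 were apart. LINC02362, at 13.2 FPKM among the 10 most abundant members, had a log2 fold change of 0.36.

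On the other side LINC00461, a host of a miR-9 precursor, had 103, 130 and 119 counts against 79, 79 and 90 (log2 fold change −0.54, SE 0.192, edgeR adjusted p = 0.013). LINC00467, which carries a short reading frame for a mitochondrial peptide, had 554, 547 and 632 counts against 487, 515 and 539 (log2 fold change −0.21, edgeR adjusted p = 0.032). LINC00623, LINC00869 and LINC01138 on chromosome 1 had −0.35, −0.29 and −0.23, and are uncertain because 64.6, 49.4 and 19.5% of their 50-base stretches recur in transcripts of other genes. The remaining one, LINC00324, had −0.34.

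For the 81 members that were not called, the data differ in what they limit. The 95% interval of the log2 fold change lay within 0.58 on both sides for 51 of them, so a change of that size was not compatible with their spread under this model. For the other 30 the interval reached the limit, so a change of that size lay within their interval. Of these 30, 8 passed by adjusted p, LINC01215, LINC00662 and LINC01399 among them, and 22 did not. LINC00673, an RNA described as a regulator of the phosphatase PTPN11, had 791, 773 and 755 counts against 850, 708 and 819, with an interval of −0.15 to 0.14. LINC01963 had an interval of −0.25 to 0.24 and LINC00539 one of −0.24 to 0.27. LINC01003, studied before in myeloma, had 148, 196 and 192 counts against 190, 194 and 197 (log2 fold change 0.08, interval −0.20 to 0.36). LINC00582, also called SMILO and known for its expression in myeloma, had 200, 210 and 209 counts in shNT and 182, 189 and 176 in shPRKCN cells. Its groups did not overlap, but the difference did not pass the test (log2 fold change −0.22, SE 0.136, edgeR adjusted p = 0.18).

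At the edge of the rule, the members with the lowest mean counts were LINC01735 (50.3), LINC01366 (52.8) and LINC01484 (54.0), with log2 fold changes of −1.63, −0.95 and −0.11. Just under the limit were LINC02014 (49.7), LINC01485 (49.7) and LINC02769 (49.5), with −0.25, −0.39 and −1.53. Of a list of B cell LINC genes, LINC00926 fell short with a mean count of 43.0 (log2 fold change 0.62, edgeR adjusted p = 0.078), while LINC01781 and LINC01857 were all but absent, with means of 0.333 and 0.167 counts. A further 114 LINC genes under the limit were tested, and 11 were called higher and 12 lower, 20.2% against 16.7% of all genes and 15.6% of the members. These shares are not matched for depth. Among all genes averaging 50 to 100 counts 33.8% were called, and no share over all genes was taken at lower counts.

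The precision followed the depth. The median SE of a member's log2 fold change was 0.240 at mean counts of 50 to 100, 0.161 from 100 to 200, 0.115 from 200 to 500 and 0.0766 above. Of the 29 members in the lowest range 6 were called (20.7%, all genes 33.8%) and of the 18 in the highest 2, LINC01480 and LINC00997 (11.1%, all genes 11.1%). From 100 to 200 counts 4 of 18 were called (22.2%, all genes 27.2%), and from 200 to 500 counts 3 of 31 (9.68%, all genes 20.3%).

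The coding gene closest to a called LINC member was called in the same direction for 2 members, LINC02397 and LINC01735. For 64 of the 95 placed members the nearest coding gene in RefSeq was tested. Among the 7 members called higher, 1 nearest gene was called higher, PLEKHG7, 219042 bases from LINC02397 (log2 fold change 0.93). The other 6 were not called at this size. Among the 6 called lower with a tested neighbour, 1 was called lower, PLXNA2, a semaphorin receptor 361731 bases from LINC01735 (−0.68), and 5 were not called. The 5 included KBTBD2, 105248 bases from LINC00997 (−0.56, edgeR adjusted p = 9.3e-15), and CEACAM21, 12614 bases from LINC01480 (−0.49, edgeR adjusted p = 6.7e-12), which passed by adjusted p but were under the size limit. The sign of the nearest gene was that of the member for 5 of these 6 and for 3 of the 7 called higher. Over all tested genes the shares called were 6.15% higher and 10.6% lower. Among the 51 uncalled members with a tested neighbour, 3 neighbours were called higher and 2 lower. The sign was the same for 31 of 64 pairs (48.4%), and the correlation across pairs was 0.12 (Pearson) and 0.09 (Spearman), given as a description since all pairs share the same libraries.

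Where starts and strands were known, 2 members began within 1000 bases of the start of their nearest coding gene, read in the opposite direction. These were LINC00205, at 157 bases from POFUT2, and LINC01134, at 132 bases from C1orf174. Coding genes other than the nearest were not searched. LINC00205 rose by 0.64 on the log2 scale while POFUT2, an enzyme that adds fucose to proteins, had −0.03. Neither pair had the same sign.

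A wider window of 500000 bases on each side, chosen after the values were seen, held 44 tested genes around the members called higher and 51 around those called lower, each gene counted once and the called members themselves left out. Around the members called higher 2 genes were called higher (4.55%) and 3 lower (6.82%). The 3 were SUMO3 (log2 fold change −0.81) and PCBP3 (−1.24) near LINC00205, and GLIS1 (−1.05) near LINC02812. Around those called lower 2 were higher (3.92%) and 10 lower (19.6%). The 2 were HRK near LINC00173 (1.35, at 2 to 23 counts per library) and LOC105372895 near LINC01735 (0.75). The shares over all tested genes were 6.15% and 10.6%, and genes at 1 locus are not independent. Of the 6 genes within the window of LINC02937, 3 were called lower, the noncoding LOC100129316 at 1969 bases (log2 fold change −2.44), NFIL3 at 245765 bases (−1.41) and DIRAS2 at 434277 bases (−2.38). NFIL3 is a bZIP repressor of transcription and DIRAS2 a small GTPase. LOC100129316 had only 8 to 63 counts per library and DIRAS2 8 to 60, while NFIL3 had 2580 to 6927.

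Around LINC01735 3 of 4 genes were called lower, LINC02769 at 12169 bases (−1.53), LOC107985255 (−1.13) and PLXNA2 (−0.68), and LOC105372895 was called higher (0.75). LINC02769 is the gene just under the count limit. ADAMTS15, a secreted metalloprotease gene 367548 bases from LINC02551, had −1.56. On chromosome 12, LINC01619 and LINC02397 lie 323848 bases apart, with BTG1 and its divergent transcript BTG1-DT among the genes around them. BTG1-DT had a log2 fold change of 0.82 at 16 to 54 counts per library, PLEKHG7 one of 0.93, and BTG1 itself, at 14875 to 22422 counts, one of 0.48, which passed by adjusted p but not by size. BTG1-DT (edgeR adjusted p = 0.039) and PLEKHG7 are the only non-members called higher in the windows of members that rose, and LINC02391 and EEA1, which also lie there, had 0.05 and 0.07.

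Some members cannot be counted apart from other transcripts with certainty. The sequences of 82 members were found in GENCODE v29, and 23 of these shared no 50-base stretch with a transcript of another gene. Of the 82, 58 shared under 10% of their stretches and 24 shared 10% or more, 7 of them over 50%. LINC01260 shared 95% with another gene model at its own locus. LINC01145 shared 81.7%, most often with LINC02591, and LINC02804 shared 73.1% with GPR89A, the paralog of the gene it is now named for. LINC02551 (2.91%), LINC01806 (0.674%) and LINC01480 (0.434%) shared little. Among the other called members LINC02397 shared 16.0% with AC063949.2 and LINC00997 12.2% with DPY19L1P1, both of which overlap them. The called members LINC02937 and LINC02812 had no sequence there and were not assessed, and LINC01735 had only 230 stretches. Whether the reads were counted by strand is not given in the sources used here, so reads of LINC01619 and BTG1, and of other overlapping pairs, may not be told apart.

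The promoter windows of the members were compared with all 27305 windows in the RefSeq table. Members had a median GC content of 54.7% beside 58.3%, and 7 CpG sites beside 14. TATAAA, searched on both strands, was found in 8 of the 63 member windows (12.7%) and in 12% of all windows. Of the windows printed above, LINC02551 has 1 such match, LINC01806 has 2 that overlap on opposite strands, LINC01619 has 2, and LINC02397 has none. The E-box CACGTG was found in 4 member windows (6.35%, all 7.43%), the AP-1 site TGANTCA in 8 (12.7%, all 7.76%), and GAAANNGAA, the repeat of interferon response elements to which IRF proteins bind, in 11 (17.5%, all 8.29%). Of the 11, 1 belongs to a called member, LINC01735. These matches are a description of the letters in the windows.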

How the data were processed

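RNA-seq was run on 6 MM.1S libraries, 3 per group. The authors deposited read counts per gene and FPKM values in separate tables, and the submitters' processing notes name FastQC, HISAT2, StringTie and the build GRCh38.p14. The counting program, its annotation and its strand setting are not given in the sources used here. Deposited FPKM values served to compare levels between genes and as an alternative. Groups were taken from the sample labels.

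Counts were fitted in edgeR 4.0.16 (R 4.3.3, TMM, filterByExpr, quasi-likelihood test, no covariate), and p-values were adjusted over all 13971 genes. Genes were called at adjusted p under 0.05 where the log2 difference also exceeded 0.58. SE was derived from the F statistic, and intervals are the estimate ± 1.96 SE. An exact permutation test of single values cannot go below p = 0.1 with 3 against 3. DESeq2 1.42.0 and limma 3.58.1, run on log2-transformed FPKM with pseudocounts of 1 and 0.1, were alternatives. The fit was tested on simulated data. Libraries of a group differed by more than counting noise (chi-square per degree of freedom 3.38 to 4.80). The members and gene lists were chosen with earlier results of these data known. Named members were the called ones, up to 10 in each direction, the 10 highest by FPKM, the 3 with the smallest change at a mean of 200 or more counts, and those at the edge of the count limit. Other members and flanking genes were named after their values were seen. The window of 500000 bases and the motif search were also chosen then.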

Additional observations from a re-analysis of the deposited data

How the results depend on the processing

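With 3 libraries a group, 30 of the 81 uncalled members have intervals that reach the limit on size. For all genes, 859 higher and 1475 lower calls became 339 and 821 when the test itself was against the limit (glmTreat), 315 and 648 with limma on log2(FPKM + 1), 310 and 635 with its filter on low FPKM, and 3700 and 3877 without a limit on size. For the members, 7 higher and 8 lower became 1 higher under glmTreat, 2 and 4 with limma on log2(FPKM + 1), filtered or not, and 19 and 14 without the limit. The pseudocount of 1 compresses the folds of genes under 1 FPKM by construction. With a mean count of 20 or more as the rule, 14 of 151 members were higher and 16 lower. With 100 or more, 5 of 67 members were higher and 4 lower. Leaving out 1 library gave 6 to 11 higher and 8 to 9 lower. The median of 0.0621 was 0.0700 with upper-quartile factors, 0.0817 with library sizes alone, 0.0682 without the filter, 0.0574, 0.0802 and 0.0545 with limma at pseudocounts of 1, 0.1 and 1 with the filter, 0.0552 at a mean of 100 counts, and 0.0482 to 0.0884 leaving out 1 library. The summed ratio of 0.989 was 1.00 by library size and 0.986 to 0.997 leaving out 1 library.

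Of the 15 calls, 12 were kept under each other scaling, filter, tool and left-out library for the counts, and DESeq2 gave the same 7 and 8. Over 29 named members, 17 of 457 recomputed values lost their call and 21 changed sign, each of the 21 in a member with no call. LINC00673 was 0.0038 with upper-quartile factors, 0.016 by library size, 0.0019 without the filter, 0.011 and 0.012 with limma, and −0.060 to 0.066 leaving out 1 library. LINC01963 was 0.011 by library size, 0.0077 and 0.010 with limma, and −0.13 to 0.080 leaving out 1 library. Leaving out 1 library also turned LINC00539 (−0.063 to 0.12), LINC01484 (−0.22 to 0.013) and LINC01003 (−0.019 to 0.15). With the replicate number as a block, all genes gave 854 higher and 1463 lower and the members the same 7 and 8. Same-numbered libraries did not deviate together (correlations −0.042, −0.013 and 0.0038). Whether the samples were paired cannot be decided from these values.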

Other observations

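Other noncoding classes were described by the same test, for which 6.15% of all genes were called higher and 10.6% lower, 16.7% in all. Of 29 snoRNA host genes tested, whose introns carry small nucleolar RNAs, 2 were called higher, SNHG4 (log2 fold change 0.79) and SNHG20 (0.60), and 0 lower (6.90% in all), with a median of 0.10. By edgeR's adjusted p alone 10 of the 29 were higher and 4 lower, where 26.5% of all tested genes were higher and 27.8% lower. Of 23 microRNA host genes tested, 1 was called higher, MIR762HG (1.05), and 4 lower (21.7% in all), with a median of 0.02. The 4 were MIR210HG (−1.36), host of a hypoxia-induced microRNA, MIR99AHG (−1.04), MIR29B2CHG (−0.87) and MIR600HG (−0.79).

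Of 12 named lncRNAs tested, 1 was called higher, MIAT (0.61), and 1 lower, MALAT1 (−0.65), both nuclear RNAs, which makes 16.7%. NEAT1, the scaffold of paraspeckles, had 0.57 and NORAD, which binds PUMILIO proteins, 0.30. PVT1 had −0.09 and CYTOR 0.04. The median of all genes was 0.0012.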
